A study of Mus musculus with 2 samples.

Results

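The core adipogenic transcription factors are the regulators that commit mesenchymal cells to the fat lineage and then switch on the genes of a fat cell. The 9 members described here were given by symbol and are Cebpb, Cebpd, Pparg, Cebpa, Ebf1, Ebf2, Ebf3, Zfp423 and Zfp521. They were found on the arrays by the RefSeq transcript printed beside each probe, among 20884 genes that could be named in this way. All 9 were on the array, with 12 probes and 21 spots on each array. They were measured in 2 cell populations grown from the epididymal fat of male C57/BL mice, on 1 single-colour Agilent array each. Small proliferative adipocytes float when collagenase-digested fat is spun briefly and sediment in a longer, faster spin; stromal vascular cells are what the brief spin leaves below the floating layer. Each population reached 90% confluency in culture and was kept for 3 days with insulin, dexamethasone and IBMX, a mixture that induces adipocyte differentiation, and for 2 more days without it. The cells so differentiated are called SPAD (from small proliferative adipocytes) and SVCD (from stromal vascular cells). How many mice or cultures each RNA came from is not given in the labels. No gene was altered in either population and no undifferentiated sample was analysed here, so the values compare 2 end points and not a course of differentiation.

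In the textbook account, the early factors C/EBPβ (Cebpb) and C/EBPδ (Cebpd) are induced within hours by cyclic AMP and glucocorticoid, and switch on the late factors PPARγ (Pparg) and C/EBPα (Cebpa). These late factors then sustain each other and bind together near most genes of the mature adipocyte. The early B cell factors Ebf1, Ebf2 and Ebf3 and the related zinc finger proteins Zfp423 and Zfp521 act in the precursor: Zfp423 favours commitment and Pparg expression, Zfp521 opposes it, and both bind EBF proteins.

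SPAD had higher signals than SVCD for 1 of the 2 early factors, 1 of the 2 late factors and 4 of the 5 commitment factors. Cebpd was 4.31-fold, Pparg 3.93-fold, Ebf1 5.06-fold, Ebf2 4.26-fold, Ebf3 4.65-fold and Zfp521 3.62-fold higher. Cebpb (1.36-fold higher), Cebpa (1.34-fold lower) and Zfp423 (1.48-fold higher on its brightest probe) stayed within 2-fold. Thus 6 of 9 members passed 2-fold in the direction of SPAD and 0 in that of SVCD. Of all 15626 genes well above background on at least 1 array, 16.3% passed 2-fold towards SPAD and 14.1% towards SVCD. Over the 14077 genes well above background on both arrays, as all 9 members were on their brightest probe, the shares were 14.4% and 13.3%. They depended on brightness: with these genes split by mean signal into 4 sets of equal size, from the dimmest to the brightest 17.7%, 15.9%, 13.1% and 11.0% were higher by that size, and 13.9%, 17.9%, 12.8% and 8.72% lower. Zfp423 and Zfp521 lay in the dimmest set, the Ebf genes in the next, Pparg in the one after, and the 3 C/EBP genes in the brightest. The median log2 difference (SPAD minus SVCD) was 1.98 over the 9 members and 0.06 over the 15626 genes. With 1 array per population there was no test and no p-value, and nothing here measures the spread between cultures. In RNA from whole cultures, fewer cells that express a gene and less RNA per cell cannot be told apart.

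**Figure D1:**
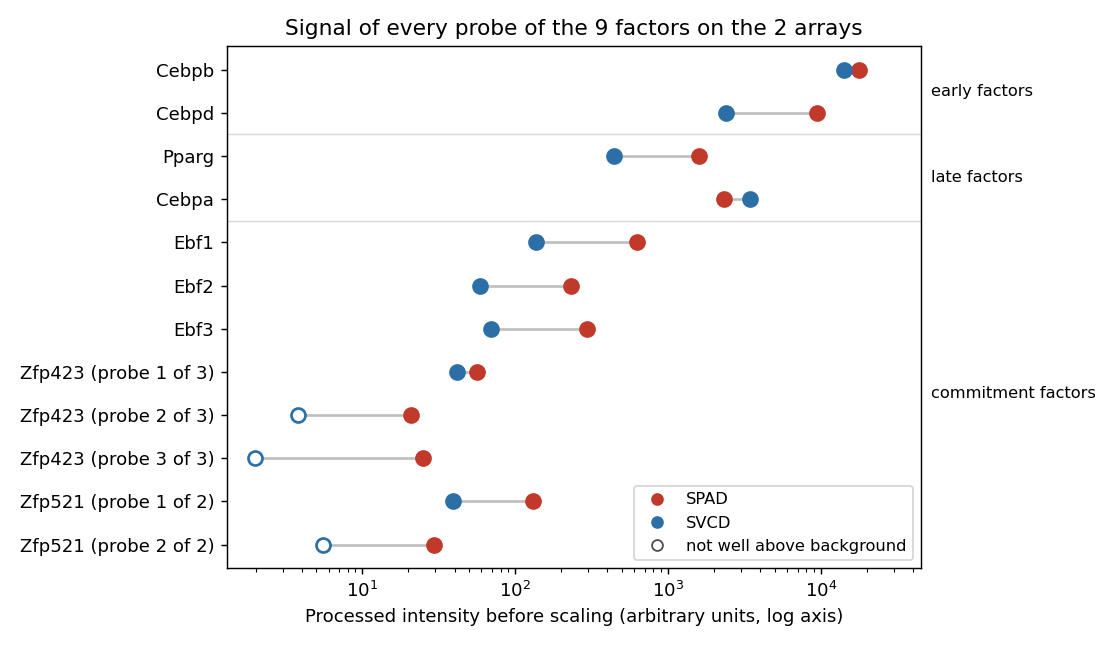
Processed intensity of each of the 12 probes of the 9 factors in SPAD (red) and SVCD (blue), on a log axis and before scaling; open circles are signals not well above background and each row is 1 probe. The Cebpa row is the only one in which the SVCD point lies to the right, and the open circles are all on the SVCD array, for 2 probes of Zfp423 and 1 of Zfp521.

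Signals are given as processed intensity on a linear scale, and differences as log2 values after each array was scaled to its 75th percentile, an intensity of 622 for SPAD and 678 for SVCD. "Well above background" is the scanner software's own flag. The lowest signal carrying it was 10.8 for SPAD and 8.6 for SVCD. The error behind ± is the SD of a log2 difference between repeat spots of equal brightness, taken from probes printed 10 times, and it covers spot-to-spot error only. For Pparg, a mean of 10 spots per array, ± is instead the error of that mean difference and so is smaller than for members read from 1 spot or a few. Single spots of the brightest probes had an SD of 0.056 and of the dimmest 0.35. Both arrays lay on the same slide with the same scan time, and no non-control spot was saturated. Scaling to the spike-in controls, which were brighter on the SPAD array by 0.84 log2 units, lowered every difference by 0.97 and the median of all genes from 0.06 to -0.90. Under it, the share of higher calls among all genes past 2-fold went from 53.6% to 11.2%. Relative to the median of all genes, the median of the 9 members was then 1.90 higher, against 1.92 in the main values. A constant shift of an array can hardly change this contrast. It was 1.39 with another background correction (normexp, described below) and 1.72 without the filter on dim probes.

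The 4 upstream windows printed here were chosen because they belong to Pparg, Ebf1 and Ebf3, which were higher in SPAD, and to Cebpa, which was not. They are the 250 bases before a start site in RefSeq (mouse build GRCm38.p6). From its table, 10 such windows for 6 of the 9 members were read here. The table had no entry for Cebpd and Ebf2, and Zfp521 was left out of this reading. Capitals mark matches, on either strand, to the C/EBP core TTNNGNAA, the EBF core CCCNNGGG, the nuclear receptor half-site AGGTCA and the TATA box TATAAA. Pparg and Ebf1 had several windows, and for both genes the printed window is the only one with a match to the C/EBP core.
Pparg, start site 3, chr6:115421816-115422065, plus strand: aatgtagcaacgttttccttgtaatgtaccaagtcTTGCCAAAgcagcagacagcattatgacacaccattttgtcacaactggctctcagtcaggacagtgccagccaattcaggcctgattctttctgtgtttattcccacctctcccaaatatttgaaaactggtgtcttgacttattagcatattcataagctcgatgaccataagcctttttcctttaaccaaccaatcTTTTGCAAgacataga
Ebf1, start site 1, chr11:44617850-44618099, plus strand: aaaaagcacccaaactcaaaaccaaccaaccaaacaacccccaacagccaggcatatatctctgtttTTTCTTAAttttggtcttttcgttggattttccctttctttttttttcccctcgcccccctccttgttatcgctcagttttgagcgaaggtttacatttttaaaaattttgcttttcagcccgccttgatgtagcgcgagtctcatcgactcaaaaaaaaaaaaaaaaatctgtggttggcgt
Ebf3, chr7:137314446-137314695, minus strand: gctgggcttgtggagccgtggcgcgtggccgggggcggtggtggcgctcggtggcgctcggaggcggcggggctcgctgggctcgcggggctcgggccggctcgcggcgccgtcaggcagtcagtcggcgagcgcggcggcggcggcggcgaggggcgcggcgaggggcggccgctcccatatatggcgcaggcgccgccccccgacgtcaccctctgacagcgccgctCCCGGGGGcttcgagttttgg
Cebpa, chr7:35119043-35119292, plus strand: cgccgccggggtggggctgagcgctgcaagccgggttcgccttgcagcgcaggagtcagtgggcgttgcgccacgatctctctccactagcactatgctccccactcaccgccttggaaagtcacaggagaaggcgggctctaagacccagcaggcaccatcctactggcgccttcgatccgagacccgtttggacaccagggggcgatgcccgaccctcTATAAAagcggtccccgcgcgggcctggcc
Pparg is known to be transcribed from alternative promoters, and start site 3 of this table lies 60922 bases beyond start site 1. Its window held 2 matches to the C/EBP core, which begin 215 and 16 bases before the start site, and had a GC content of 40.8%. The windows of Pparg start sites 1 and 2 had 0 C/EBP matches and 1 half-site each, with GC contents of 82.4% and 63.6%. That of start site 2 also held 1 TATA box match, which begins 29 bases before the start. The printed Ebf1 window held 1 C/EBP match, the window of Ebf1 start site 2 (GC content 52.0%) 0 matches to any of the 4 motifs, the Ebf3 window 1 EBF match that begins 21 bases before the start, and the Cebpa window a TATA box that begins 30 bases before it. The GC content was 40.0% for that Ebf1 window, 80.0% for Ebf3 and 66.4% for Cebpa, beside a median of 52.4% over all windows. Among the 32851 windows of the table, 36.8% held the C/EBP core, 11.8% the EBF core, 14.0% the half-site and 12.4% the TATA box. Of the windows not printed, that of Cebpb held 1 EBF match, and both Zfp423 windows held 1 C/EBP match each, the second also 1 EBF match and 1 half-site. The matches thus occurred in windows of members on both sides of 2-fold, and they describe letters only. The SPAD and SVCD signals below do not say which start site was used, since the probe positions were not analysed here.

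Of the early factors, Cebpb, a leucine zipper protein induced by the cyclic AMP arm of the induction mixture, was bright on both arrays. Its signal was 17710.9 in SPAD and 14177.6 in SVCD, a log2 difference of 0.45 ± 0.079. This is more than spot error but well under 2-fold, and 69.0% of the 14077 genes well above background on both arrays had a smaller difference. It also depended on the scaling: the value turned to -0.52 with the spike-ins. Cebpd, its partner in the first wave and a known glucocorticoid target, gave 9363.5 in SPAD and 2371.1 in SVCD. The log2 difference of 2.11 ± 0.079 was above that of 96.0% of genes. The 2 early factors therefore differed unequally, by 1.66 ± 0.11 log2 units, a contrast that no constant scaling of an array can change.

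Of the late factors, Pparg, the nuclear receptor required for fat cell formation, was printed 10 times on each array. Its SPAD spots ran from 1462.5 over a median of 1584.1 to 1684.5, and its SVCD spots from 412.1 over 439.3 to 459.7. The 2 sets of spots did not overlap, and the lowest SPAD spot was 3.18 times the highest SVCD spot. Spots of 1 probe are repeat readings of the same RNA and not replicates of the cells. The log2 difference was 1.98 ± 0.027, above that of 95.5% of genes, and it was 1.01 with spike-in scaling. Cebpa, which cooperates with PPARγ and confers insulin sensitivity, gave 2321.6 in SPAD and 3405.7 in SVCD. It was the only member with the lower value in SPAD, by -0.43 ± 0.078, and 26.6% of genes lay below it. With spike-in scaling its difference was -1.40, past 2-fold. Pparg and Cebpa differed from each other by 2.40 ± 0.083 log2 units in the comparison of the 2 populations, so that the ratio of Pparg to Cebpa signal was the higher one in SPAD under any constant scaling.

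**Figure D2:**
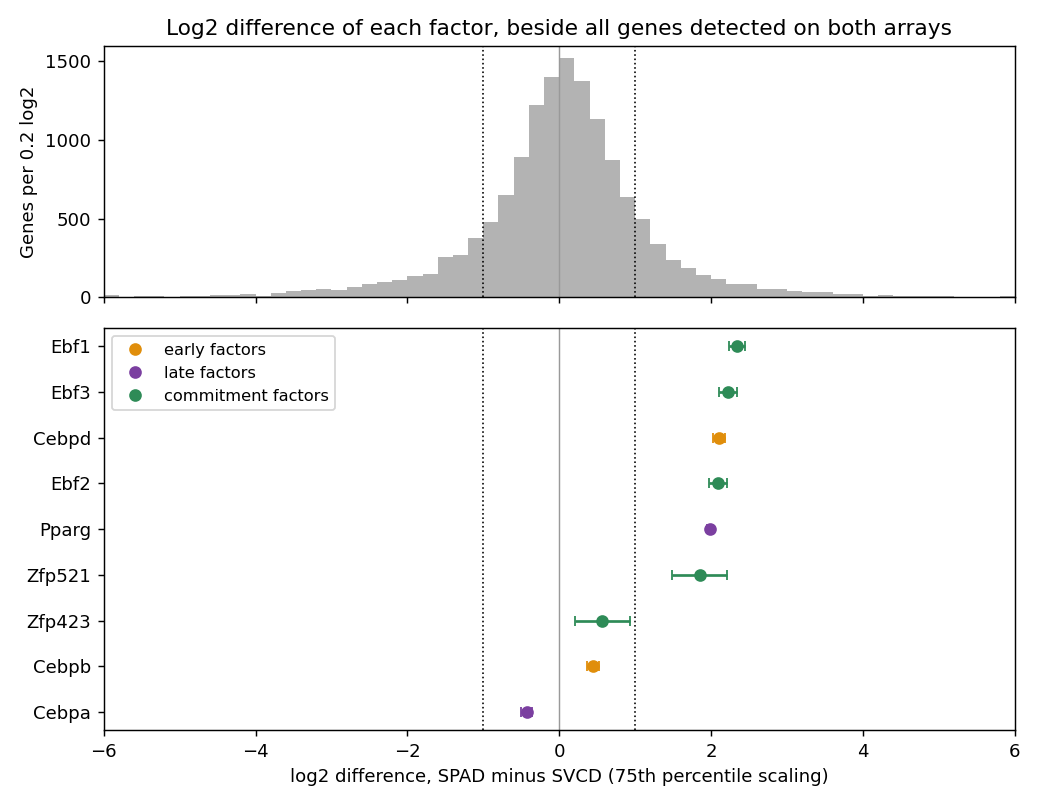
Lower panel, the log2 difference (SPAD minus SVCD) of each factor with bars for the spot error, coloured by role; upper panel, the same difference for the 14077 genes well above background on both arrays, with values beyond 6 in either direction drawn at the edge; dotted lines mark 2-fold. The 6 highest factors lie between 1.85 and 2.34, and Zfp423, Cebpb and Cebpa lie between the dotted lines.

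The 3 early B cell factors, helix-loop-helix proteins that act upstream of Pparg in precursors, were each several fold higher in SPAD. Ebf1, which is also a factor of B lymphocytes, had a signal of 628.2 in SPAD and 135.5 in SVCD (log2 difference 2.34 ± 0.11). Ebf2, known to mark brown and beige precursors, had 229.8 in SPAD and 58.8 in SVCD (2.09 ± 0.12). Ebf3 had 295.6 in SPAD and 69.3 in SVCD (2.22 ± 0.12). The 3 differences lay within 0.25 log2 units of each other, about the size of the spot error of such a contrast (0.16 to 0.17). Cebpd also fell in this range, whereas Pparg lay below Ebf1 by 0.36 ± 0.12. All 3 Ebf probes were below the 75th percentile of their array in SVCD, and only Ebf1 reached it in SPAD. Another background correction (normexp, an estimate of the background from the pixel medians) with an added offset gave lower differences of 1.84, 1.46 and 1.52. The offset of 50 was added to every signal, which by itself narrows log2 differences of dim probes. Ebf4, the remaining family member, was dim, with 53.7 in SPAD and 35.1 in SVCD (0.74 ± 0.36, and below 0 with spike-in scaling).

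The zinc finger pair was dim on both arrays. Zfp423 had 3 probes. The brightest gave 56.3 in SPAD and 41.4 in SVCD, a difference of 0.57 ± 0.36 that is within 2 spot errors of 0 and turned to -0.40 with the spike-ins. The second gave 20.7 in SPAD and 3.77 in SVCD, and the third 24.9 in SPAD and 1.98 in SVCD. Neither of these was well above background in SVCD, so only bounds can be given, at least 2.63-fold and at least 3.16-fold higher in SPAD. The 3 probes thus disagreed on the size: the brightest showed 1.48-fold and the others at least 2-fold. Their median pixel brightness was 82.5, 49.0 and 55.0 in SPAD over local backgrounds of 24.0, 30.0 and 35.0. Zfp521, the antagonist of Zfp423, had 2 probes. Its brighter probe gave 129.5 in SPAD and 39.1 in SVCD (1.85 ± 0.36), and the other 29.5 in SPAD and 5.52 in SVCD, at least 3.74-fold higher. Both Zfp521 probes gave the higher signal in SPAD, as they did with spike-in scaling. There the difference was 0.88 on the brighter probe and the bound 0.93 on the other. On the brightest probes Zfp521 and Zfp423 differed by 1.28 ± 0.52 in their SPAD excess.

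Other proteins of the C/EBP and EBF families and their partners went both ways, with 2 of 6 at least 2-fold higher, 1 lower and a median of 0.70. Ddit3 (CHOP), a stress-induced C/EBP relative that forms inactive dimers with C/EBPs, had 5189.2 in SPAD and 695.2 in SVCD, 8.14-fold higher. Atf4, another leucine zipper factor of the stress response, was 2.59-fold higher (1.37 ± 0.079, and 1.79 on its other probe). Cebpe, a factor of granulocytes, was 5.65-fold lower, at 21.3 in SPAD and 131.4 in SVCD. Among 20 partners, coactivators and corepressors of PPARγ, 5 were at least 2-fold higher and 1 lower, and the median of 0.07 was close to the 0.06 of all genes. Ppargc1a, a coactivator of mitochondrial genes, had 50.2 in SPAD and 2.62, below background, in SVCD, at least 6.37-fold higher; its other probe was not above background on either array. Wwtr1 (TAZ), which can repress PPARγ, was 3.68-fold higher, the corepressor gene Nrip1 3.44-fold and the deacetylase gene Sirt1 2.72-fold.

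Among 20 other transcription factors held to favour adipogenesis, 2 were at least 2-fold higher and 3 lower, with a median of 0.14. Zfp467, a zinc finger cofactor, was 4.10-fold lower on the brightest of 4 probes, all of which were lower in SPAD. Egr2 (Krox20), an early inducer of Cebpb, was 3.52-fold lower, at 487.9 in SPAD and 1871.7 in SVCD. Nr1h3 (LXRα), an oxysterol receptor also abundant in macrophages, was 2.32-fold lower, and Klf15 was detected in SPAD alone, at 29.8, at least 3.79-fold higher. Of 20 factors held to restrain adipogenesis, 2 were at least 2-fold higher and 7 lower, with a median of -0.76. Id2, an inhibitor of helix-loop-helix proteins that was counted in this list, had 1657.9 in SPAD and 12990.5 in SVCD, 7.18-fold lower. Whether Id2 restrains adipogenesis in these cells was not tested. Klf2 was 3.00-fold lower and Sox9, detected in SVCD alone, at least 3.88-fold lower. Nr2f1 (COUP-TFI) stood apart at 5.65-fold higher. Of 12 genes of the bone morphogenetic protein input that is known to act through Zfp423, 11 were detected, 4 at least 2-fold higher and 2 lower (median 0.49). The ligand gene Bmp2 was 14.0-fold higher in SPAD and Bmp7, detected there alone, at least 3.63-fold. Smad1, which carries the signal to the nucleus, was 3.61-fold higher, and the secreted antagonist gene Grem1 11.8-fold lower.

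**Figure D3:**
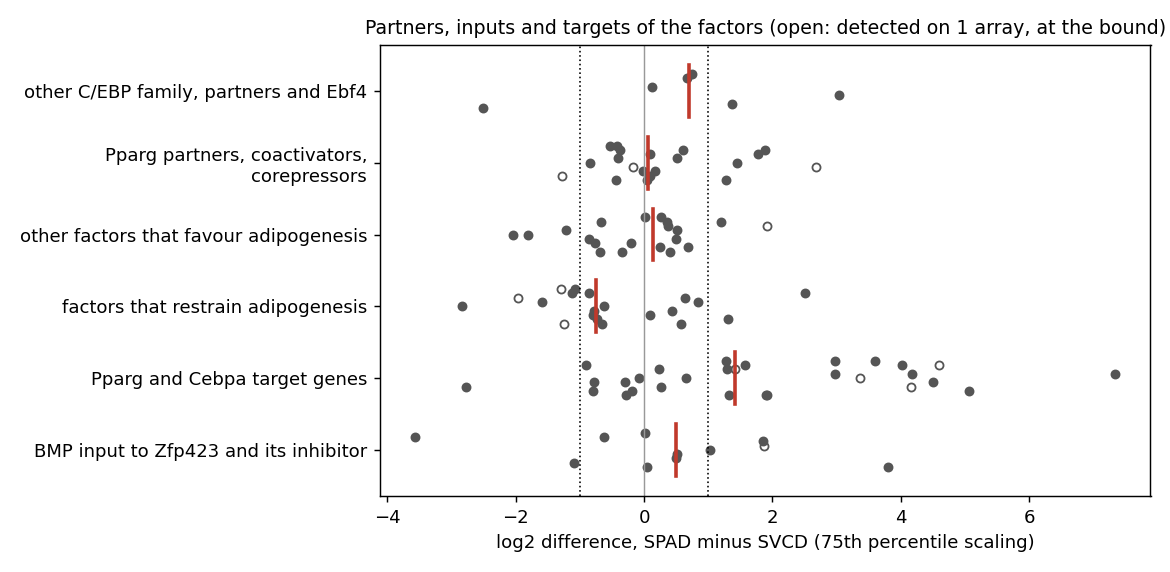
Log2 difference (SPAD minus SVCD) of each detected gene in 6 lists of family members, partners, other regulators, target genes and upstream signals; red bars are list medians, open circles are genes detected on 1 array drawn at their bound, and dotted lines mark 2-fold. The target genes reach from -2.77 to 7.34 with a median of 1.41, while the partners centre on 0.07.

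Of 30 known targets of PPARγ and C/EBPα, 29 were detected. In SPAD, 18 were at least 2-fold higher and 1 was at least 2-fold lower, with a median of 1.41. Cfd (adipsin) had 7540.5 in SPAD and 50.6 in SVCD, and Plin4, a lipid droplet coat protein, 3556.4 and 116.5. The resistin gene Retn had 1273.8 in SPAD and 61.5 in SVCD. Ucp1 was detected in SPAD alone at 189.7. These exceeded the 3.93-fold difference of Pparg itself. Adipoq (336.3 in SPAD and 22.7 in SVCD), Plin1 (478.7 and 29.0) and Slc2a4 (243.9 and 34.0) did so too. Fabp4, the fatty acid carrier, differed by about as much as Pparg: 108495.2 against 31256.7, or 1.92 ± 0.079. Lpl, a further textbook target, went the other way, with 2806.3 in SPAD and 20821.3 in SVCD (-2.77 ± 0.079, and -2.91 on its other probe). Leptin (Lep) was below the detection flag on both arrays.

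Marker genes were read to check the labels and the other cell types these cultures could hold. Of 8 mature adipocyte markers, of which 7 also stand among the targets above, 7 were detected and all 7 passed 2-fold in SPAD, with a summed signal of 125507.1 there and 31534.3 in SVCD. Fabp4 made up most of both sums, which were 17011.9 and 277.6 without it. Cidec, a lipid droplet protein, differed by 3.59 ± 0.11 on its brighter probe but differed by -0.00 on its other one. Several factors are also known from blood cells, Cebpa and Cebpb from macrophages and Ebf1 from B cells. Markers of several other cell types differed alongside the factors, and their part in the differences was not tested. Of 8 macrophage and myeloid markers measured, 6 were lower in SPAD by 2-fold or more and 0 higher, with a summed signal of 110739.4 in SPAD and 172027.7 in SVCD. Most of the SPAD sum was lysozyme (Lyz2), at 98428.9 in SPAD and 84459.1 in SVCD, and without it the sums were 12310.5 and 87568.6. Csf1r, which encodes the M-CSF receptor, was 3185.5 in SPAD and 58410.2 in SVCD on its brightest probe (-4.07, and -1.64 on the least bright of 3). The B cell markers Ms4a1, Pax5 and Blk did not carry the detection flag on either array. Of those detected, Cd79b (144.7 and 24.2) and Cd79a (16.4, with 7.64 below background) were higher in SPAD and Cd22 lower. The summed B cell signal was 532.2 in SPAD and 592.4 in SVCD, and 186.2 and 45.1 without Cd22. Of 5 pericyte markers detected of 6, 3 were at least 2-fold higher and 1 lower (summed signal 990.2 in SPAD and 529.5 in SVCD, and 363.9 and 371.1 without Notch3), led by Rgs5 at 7.19-fold higher.

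Endothelial markers were higher in SPAD for 6 of 7, by at least 2-fold, with a summed signal of 9544.3 against 4173.1 (7454.8 and 970.7 without Kdr, which was lower in SPAD). Of 8 adipose progenitor markers detected of 9, 3 were at least 2-fold higher and 2 lower, with a summed signal of 7320.4 in SPAD and 2430.2 in SVCD. Thy1, found on the surface of fibroblasts, was 8.72-fold higher and carried that gap, since without it the sums were 1976.9 and 1761.6. Dlk1, the preadipocyte factor, was 2.56-fold lower. Mesothelial markers were at least 2-fold lower for 4 of 7 (summed signal 1258.9 in SPAD and 11698.8 in SVCD, and 1121.9 and 5325.7 without Krt18). Smooth muscle and myofibroblast markers were at least 2-fold lower for 4 of 5, at 15369.2 and 213309.3. Of 6 neuronal and olfactory markers, a tissue in which EBF and Zfp423 proteins are also known, 5 were detected, 3 of them at least 2-fold lower in SPAD and 0 higher (303.9 and 1038.1).

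**Figure D4:**
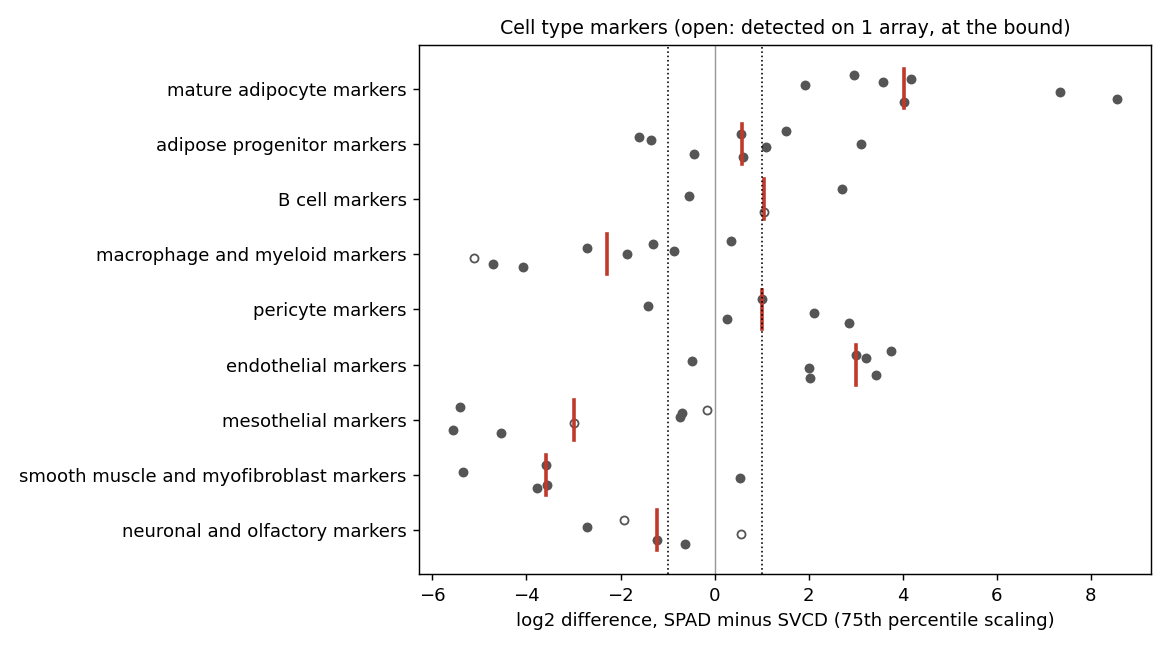
Log2 difference (SPAD minus SVCD) of each detected gene in 9 lists of cell type markers; red bars are list medians, open circles are genes detected on 1 array drawn at their bound, and dotted lines mark 2-fold. Mature adipocyte (median 4.02) and endothelial markers (3.00) lie to the right, and macrophage (-2.29), mesothelial (-2.99) and smooth muscle markers (-3.59) to the left.

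The sizes depended on the processing. Over 11 alternatives, Cebpd ranged from 1.14 to 2.11, Pparg from 1.01 to 1.98, Ebf1 from 1.37 to 2.34, Ebf2 from 1.12 to 2.09 and Ebf3 from 1.25 to 2.22. In each of these the lowest value came from spike-in scaling. Zfp521 ranged from 0.88 to 2.20 and Zfp423 from -0.40 to 2.31, the latter value being a mean over 3 probes of which 2 were not above background in SVCD.

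**Figure D5:**
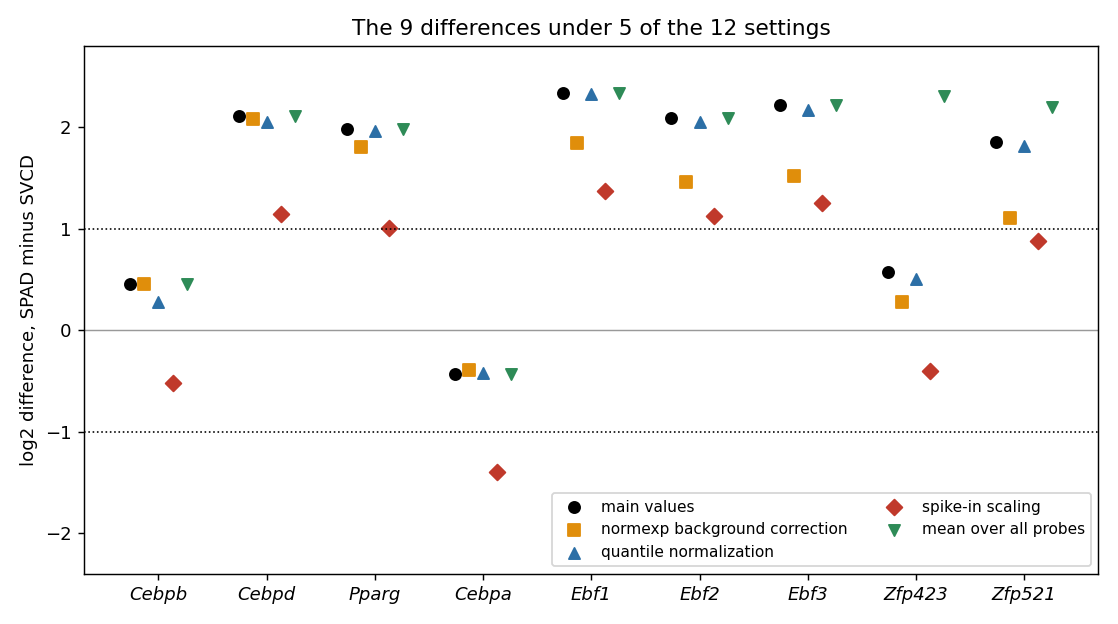
Log2 difference (SPAD minus SVCD) of each factor in the main values (black circles), with the normexp background correction (orange squares), quantile normalization (blue triangles), spike-in scaling (red diamonds) and as a mean over all probes of the gene (green triangles); dotted lines mark 2-fold. Spike-in scaling lowers all 9 by 0.97, which puts Cebpb and Zfp423 below 0 and Cebpa past 2-fold lower.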

How the data were processed

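Total RNA (30 ng per array) was labelled with Cy3 and read, as the submitters' processing notes state, by Agilent Feature Extraction 10.7.3.1. Scanner files as deposited hold background-subtracted processed intensity, per the file headers. A table of log2 values, centred per probe over both arrays, was deposited too. The difference of those columns equalled that of the scanner files plus 0.12, within 0.01 for 100% of 39026 probes; the scaling behind this table is not stated in the sources used here.

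Control and outlier spots were left out, repeat spots averaged as log2, and each array scaled to its 75th percentile. Of 39425 probes, 27506 (69.8%) were named by RefSeq transcript (GRCm38.p6 table, without versions). A gene was read from its brightest probe. At least 2-fold means a log2 difference of 1 or more. On 1 detected array, the bound was taken against the higher of the dim probe and the lowest signal well above background. Named genes are the members, up to 4 genes per list with the largest absolute difference, and Fabp4, Adipoq, Plin1, Slc2a4 and Lpl. With 2 arrays, no gene was named for a like pattern. Members and lists were chosen with earlier results of these data known. Single values of a few genes are not reported here. The steps were tested on simulated data. Normexp used limma 3.58.1 with offset 50. The other steps used Python 3.11.15.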

Additional observations from a re-analysis of the deposited data

How the results depend on the processing

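With 1 array per population, no array could be left out. The count of members at least 2-fold higher lay between 5 (spike-in scaling) and 7 (mean over all probes) under all alternatives, beside 6 in the main values. The count at least 2-fold lower was 0 except with spike-in scaling, where Cebpa made it 1. The same scaling turned Cebpb to -0.52 and Zfp423 to -0.40. Over all genes, the main 2547 higher and 2206 lower calls became 1483 and 1430 with normexp, 882 and 6995 with spike-in scaling, and 4291 and 3491 at a size of 1.5-fold. Of the 99 member values under alternatives, 75 moved by no more than the spot error, 22 by more, and 2 changed sign. Many of the 75 could not move, so this count does not measure robustness. All members were detected on both arrays, so neither alternative on detection could change their values. A mean over all probes could not change a member with 1 probe. The deposited table differed from the scanner values by a constant, and keeping outlier spots left every member value as it was. List medians for the C/EBP relatives (0.70), PPARγ partners (0.07), factors favouring adipogenesis (0.14), bone morphogenetic protein input (0.49) and progenitor markers (0.58) turned negative with the spike-ins, at -0.27, -0.90, -0.83, -0.48 and -0.39. With normexp, list medians of markers were 2.78 for mature adipocytes (4.02 in the main values), 2.17 for endothelial (3.00) and 0.34 for B cell genes (1.05). They were 0.51 for pericyte (1.01), -0.57 for neuronal (-1.22) and -1.22 for mesothelial genes (-2.99). The mesothelial median was -4.56 in the authors' deposited table, read for genes detected on both arrays only. It was -4.55 in the scanner values of such genes. Naming by a gene name column was not run and normexp used median pixel values, as these were the columns used here. Signals near the floor limit Zfp423, Zfp521, Ebf2 and Ebf3 in SVCD.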

Other observations

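The genes that flank the 9 factors on their chromosomes, taken from the order of protein-coding genes in the RefSeq table (GRCm38.p6) and chosen after the data were seen, were read in the same way. Of 18 neighbours, the nearest on each side with a probe, 17 were detected. Among them 1 passed 2-fold in the direction of SPAD and 1 in that of SVCD, beside 16.3% and 14.1% of all detected genes, and the median log2 difference was -0.33. The genes on either side of Ebf1, Rnf145 and Clint1, differed by -0.33 and -0.50, and Timp4, a neighbour of Pparg, by 0.31. Ebf2, itself 4.26-fold higher, lies next to Cdca2, a gene of dividing cells, which was 10.6-fold lower at 27.5 in SPAD and 318.1 in SVCD. Beside Cebpa, its family member Cebpg differed by 0.67, with 1122.3 in SPAD and 769.3 in SVCD. On its other side the amino acid transporter gene Slc7a10, known as a surface marker of white adipocytes, was detected in SPAD alone at 18.4, at least 2.34-fold higher.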
